A study of Mus musculus with 18 samples.

Results

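Marrow cells of BALB/c wild-type (WT) mice, and of mice that the labels call Cysltr1 deficient, were cultured for 4 days with 40 ng/mL GM-CSF and no other added factor, and messenger RNA was sequenced in bulk. The comparison holds the 3 libraries whose titles name Cysltr1-/- and GM-CSF alone and the 3 that name WT and GM-CSF alone, 6 of the 18 libraries of the series. Marrow of 3 mice was pooled for each sample, and all 6 cultures had the same complete medium. Nothing in the labels says that the 3 samples of a genotype came from separate pools, so the p-values below measure only the spread between these samples, which may be technical. Neither the strain background of the deficient line nor the age and sex of the mice is given in the sources used here, and anything else in which the donors of the 2 genotypes differed cannot be told apart from the genotype. The other 12 libraries come from the same genotypes with 40 ng/mL IL-6 added, or with 50% (v/v) medium that EMT6 cells, a mouse mammary carcinoma line, had conditioned for 24 h.

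GM-CSF is a growth factor that acts through the receptor chains Csf2ra and Csf2rb and the transcription factor STAT5, and in marrow culture it yields a mixture of granulocytes, monocytes, macrophages and dendritic cells. Cysltr1 encodes the type 1 receptor for the cysteinyl leukotrienes, lipid mediators that myeloid cells make from arachidonic acid through 5-lipoxygenase (Alox5), its activating protein (Alox5ap) and leukotriene C4 synthase (Ltc4s). The receptor is a G-protein-coupled receptor best known as the target of montelukast in asthma. The comparison asks which genes the cultures expressed at other levels when the marrow came from the deficient line, before IL-6 or tumour medium was added.

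Gene counts summed to between 17839542 and 31989342 per library. Of 55536 genes in the files 28334 had enough counts to be tested, and 7735 of these (27.3%) differed between the genotypes at an adjusted p under 0.05, the rule for a call throughout. A total of 2858 (10.1%) were higher and 4877 (17.2%) lower in the libraries labelled Cysltr1-/-, so 36.9% of calls were higher. That split moved with the scaling: 59.2% of calls were higher with library sizes alone, which shifted the median log2 fold change by 0.12, and 52.2% with no filter on low counts. Calls of at least 2-fold numbered 1210 (4.27%), of which 590 (2.08%) were higher and 620 (2.19%) lower. The share of genes called rose with level, from 4.72% of the 12954 genes below 1 CPM (counts-per-million, the unit of levels below) to 68.1% of the 310 at 500 CPM or more. Among the former 455 were called higher and 156 lower. Of 6142 genes at 5 to 50 CPM 52.5% were called (1124 higher, 2100 lower). Of 4554 genes at 50 to 500 CPM 61.2% were called (762 higher, 2027 lower). The 10.1% and 17.2% of all tested genes apply to every list count below, but genes at such levels were called more often. The lists and their members were chosen with earlier results of these data known. The list counts below therefore describe the lists and are no independent test of them. The first principal component held 88.4% of the variance and separated the genotypes. The replicates of the 2 groups did not overlap for 10549 of the tested genes (37.2%). Lack of overlap, given for many genes below, was thus common, and many of those genes were chosen for a small p or a large change.

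Both groups carried myeloid markers, of which those of neutrophils, monocytes and macrophages are given below. Itgam, the integrin chain CD11b of myeloid cells, stood at 778 to 846 CPM in WT against 702 to 722 CPM in labelled-deficient libraries, while Cd3e, a T-cell receptor component, stood at 2.27 to 3.36 and 2.53 to 3.25 CPM. Reads in no annotated feature made up 14, 12.8 and 15.9% of the WT files and 17.7, 18.1 and 17% of the labelled-deficient ones (14.2 ± 1.53% and 17.6 ± 0.583%, SD, n = 3 each, exact permutation p = 0.1, two-sided, the smallest that 3 against 3 allows). Mitochondrially encoded genes took 1.46 ± 0.0733% and 1.69 ± 0.0505% of gene counts, with the same exact permutation p of 0.1. Olfactory and vomeronasal receptor genes took 0.0191 ± 0.00438% in WT and 0.0276 ± 0.00106% in labelled-deficient libraries, again with an exact permutation p of 0.1. Entries with a bare number in place of a gene ID, left out of the fit, took 0.0473 ± 0.00809% and 0.0631 ± 0.00303% of feature counts. The part of these shares in the results was not tested. In bulk samples, fewer cells of a type and less RNA per cell cannot be told apart, and this holds for every group of cell type genes below.

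The Cysltr1 transcript itself was not lower in the libraries labelled Cysltr1-/-. It stood at 61.2, 57.6 and 62.8 CPM in WT libraries against 75.2, 77.4 and 78.7 CPM in the labelled-deficient ones. The groups did not overlap, and the log2 fold change, here and below labelled-deficient minus WT and given ± its standard error (SE), was 0.34 ± 0.057 (n = 3 per group, adjusted p = 2.86e-06). A count over the whole gene covers exons that a targeted allele may keep, so it does not check the deletion, and the genotype rests on the labels. Gm5127, a predicted gene whose span overlaps Cysltr1 on the opposite strand, was higher as well (0.81 ± 0.225, adjusted p = 0.00444), and counts of overlapping genes are uncertain because no strand setting is given. Cysltr2, the second cysteinyl leukotriene receptor, did not pass the test (0.09 ± 0.117, adjusted p = 0.66).

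The largest rise of all lay in the same stretch of the X chromosome. Fndc3c1, a fibronectin type III domain gene at chrX:106420041-106485401 (mm10, minus strand), had 13, 8 and 19 counts in WT against 848, 1018 and 588 in the libraries labelled Cysltr1-/-. These counts correspond to 0.632, 0.504 and 0.694 CPM and 37.6, 41.4 and 36.4 CPM, with a log2 fold change of 5.93 ± 0.132, adjusted p = 1.37e-33. Its span ends less than 1 Mb from the start of Cysltr1 (chrX:106574346-106603679). A total of 38 tested genes lay within 2 Mb of Cysltr1. Beside Fndc3c1, Cysltr1 and Gm5127, the general transcription factor subunit gene Taf9b was higher (0.74 ± 0.108). Lower were Tlr13, a sensor of bacterial ribosomal RNA (-0.83 ± 0.056), Itm2a (-0.92 ± 0.111), the receptor gene P2ry10 (-0.62 ± 0.068), the glycolytic enzyme gene Pgk1 (-0.46 ± 0.045), the copper transporter gene Atp7a (-0.44 ± 0.083), 5530601H04Rik (-0.42 ± 0.091), Gpr174 (-0.36 ± 0.13), the respiratory chain subunit gene Cox7b (-0.34 ± 0.063) and Pbdc1 (-0.27 ± 0.073). The call of Gm5127 was lost without WT library 2, that of Pbdc1 with library sizes alone, and that of Gpr174 under 10 of 14 alternatives. The other 25 did not pass. Within 10 Mb the share called was 26.1% of 165 tested genes, near the 27.3% of all genes, and the share called at 2-fold or more was 7.88% against 4.27%. Xist, the X-inactivation RNA, did not pass the test (0.02 ± 0.07, adjusted p = 0.907). It had 13431 to 21363 counts in each of the 6 libraries, while the Y-chromosome gene Ddx3y had 0 to 3. Both genotypes thus had the pattern of female cells.

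The other leading rises fell into several kinds of gene. Rbp4, the plasma carrier of retinol, stood at 1.7, 1.45 and 1.35 CPM in WT against 35.6, 31.3 and 36.5 CPM in labelled-deficient libraries (4.52 ± 0.115, adjusted p = 1.73e-31). Il6, the cytokine added in other cultures of the series but not here, stood at 4.91, 4.22 and 4.9 CPM against 27.5, 27.6 and 27.6 CPM (2.54 ± 0.089, adjusted p = 1.74e-26). Timp1, an inhibitor of matrix metalloproteinases, stood at 13.9, 12.9 and 14.7 CPM against 75, 75 and 78.6 CPM (2.45 ± 0.079, adjusted p = 1.22e-27). In none of the 3 did the groups overlap. Cdkn2a, which encodes the cell cycle inhibitor p16 and the p53 activator p19Arf, rose by 2.71 ± 0.111, and Pla2g5, a secreted phospholipase A2 that frees fatty acids for lipid mediators, by 2.69 ± 0.173. The remaining large rises were those of Car6, a carbonic anhydrase (3.20 ± 0.194), Btbd11 (2.94 ± 0.119), the glycine transporter gene Slc6a9 (2.78 ± 0.142), Soat2, Chac1 and Trib3, which are described with their pathways.

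Among the leading falls were genes of neutrophil and eosinophil granules, of lipid supply and of antigen presentation. H2-Q7, a non-classical MHC class I gene, stood at 11, 9.07 and 8.8 CPM in WT against 0.443, 0.61 and 0.991 CPM in labelled-deficient libraries (-3.87 ± 0.17, adjusted p = 6.68e-23). Its near-identical neighbours make the counts uncertain. Arhgap19, a GTPase-activating protein that acts in cell division, stood at 63.9, 67 and 61.1 CPM against 4.83, 4.51 and 3.84 CPM (-3.84 ± 0.081, adjusted p = 2e-34). Otud3, a deubiquitinase, fell by 2.61 on the log2 scale, Matn4, a matrix protein gene, by 2.4, and Nkg7, a granule membrane protein gene, by 2.62. The falls of Elane, Prtn3, Prss57, Retnlg, Prg3 and Fdps are given with their groups. The groups of these leading genes did not overlap, which was a condition for naming them.

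**Figure D1:**
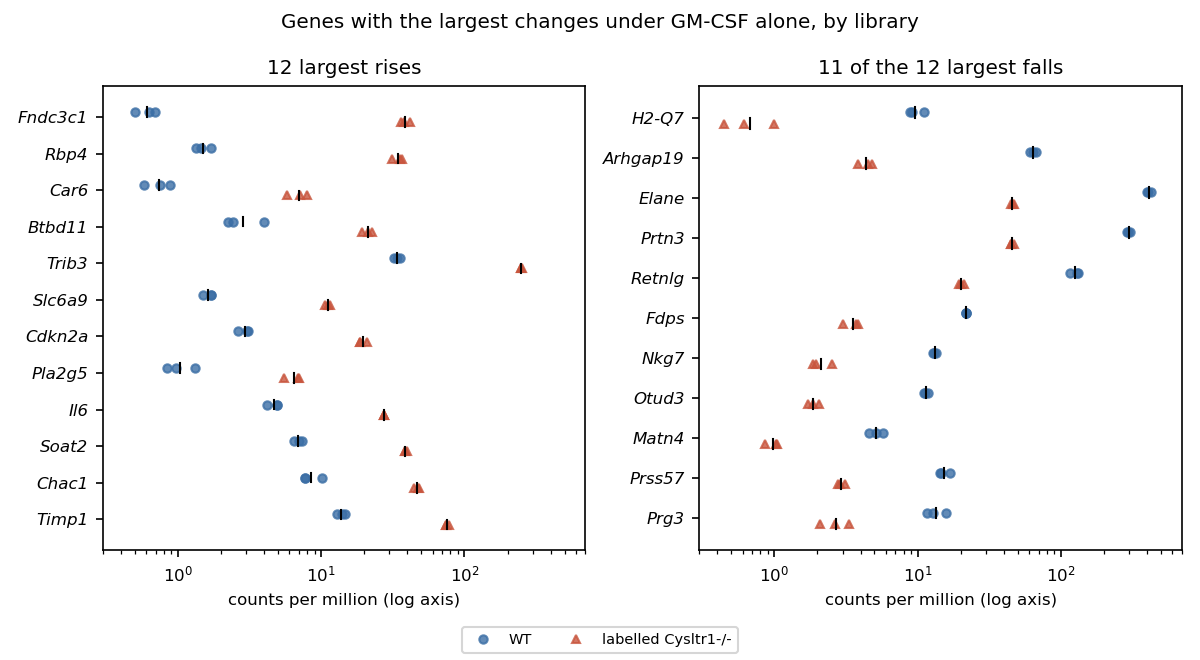
CPM (log axis) of the 12 genes with the largest rises (left) and 11 of the 12 with the largest falls (right) under GM-CSF alone. Circles are the 3 WT libraries, triangles the 3 libraries labelled Cysltr1-/-, and short bars the group means. Fndc3c1 stands at 0.504 to 0.694 CPM in WT and 36.4 to 41.4 CPM in labelled-deficient libraries, and Elane at 398 to 427 CPM and 44.6 to 46.7 CPM.

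Genes of the amino acid response rose, all but 1. ATF4 is a transcription factor whose translation increases when amino acids run short or the integrated stress response is active, and its targets include amino acid transporters, enzymes of serine and asparagine synthesis, and aminoacyl-tRNA synthetases. Of 24 tested members of this list 23 were called higher and 1 lower, where 10.1% and 17.2% of all tested genes were. As the list was chosen with earlier results of these data known, this contrast is a description, not a test. The list had a median log2 fold change of 1, and all tested genes had one of 0.04. Known ATF4 sites carry the amino acid response element TGATGNAA, where N is any base. It was searched on both strands of RefSeq promoter windows (GRCm38.p6, 250 bases before to 50 after each start), and 8 of the 20 list genes with a window held it (40%), namely Trib3, Chac1, Asns, Slc7a11, Vldlr, Nupr1, Pck2 and Aars, compared with 1219 of 27025 genes (4.51%). A match is a description of the letters, not a shown binding site. Slc7a11 holds a copy on each strand and Chac1 one on the opposite strand (TTGCATCA), and both stretches below, shown since these genes lead the list or link it to cystine supply, lie upstream of annotated exons, with the element in capitals:
Chac1 (chr2:119351024-119351081, plus strand): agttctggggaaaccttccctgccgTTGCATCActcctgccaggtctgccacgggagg
Slc7a11 (chr3:50443628-50443685, minus strand): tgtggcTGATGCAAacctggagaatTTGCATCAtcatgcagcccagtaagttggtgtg

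Trib3, a pseudokinase that is both a target and an inhibitor of ATF4, stood at 32.5, 35.3 and 33.9 CPM in WT libraries against 247, 250 and 253 CPM in the labelled-deficient ones. The groups lay far apart, with a log2 fold change of 2.88 ± 0.058, adjusted p = 2.93e-35. Chac1, a glutathione-degrading enzyme, stood at 7.73, 10.1 and 7.74 CPM against 47.9, 44.2 and 47.4 CPM (2.47 ± 0.09, adjusted p = 7.21e-26). Asns, which makes asparagine, stood at 56.6, 53.5 and 56.2 CPM against 177, 169 and 175 CPM (1.65 ± 0.055, adjusted p = 5.01e-27). Each of these 3 genes holds the element and was several times higher in every labelled-deficient library. Atf4 itself stood at 339, 308 and 313 CPM against 610, 635 and 621 CPM (0.96 ± 0.045, adjusted p = 6.54e-22), and its partner Ddit3, the stress factor CHOP, at 31.6, 29.2 and 30.2 CPM against 69.7, 75.5 and 75 CPM (1.27 ± 0.061, adjusted p = 1.52e-21). Atf5, a related factor, stood at 234, 218 and 212 CPM against 605, 618 and 614 CPM (1.47 ± 0.051, adjusted p = 1.72e-26).

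The serine and one-carbon enzymes of the list all rose. Phgdh (1.05 ± 0.055), Psat1 (0.65 ± 0.049) and Psph (0.82 ± 0.071) make serine. Shmt2 (0.72 ± 0.05), Mthfd2 (1.12 ± 0.048) and Aldh1l2 (1.97 ± 0.078) act in folate one-carbon metabolism. Transporter genes rose as well. Slc7a5, the light chain of the leucine transporter LAT1, stood at 203, 215 and 186 CPM in WT against 616, 601 and 598 CPM in labelled-deficient libraries (1.59 ± 0.069, adjusted p = 5.17e-23), its heavy chain Slc3a2 rose by 0.71 ± 0.044, and the cystine transporter gene Slc7a11 by 0.73 ± 0.053. Cth, which makes cysteine, rose by 1.78 ± 0.123, and the tRNA synthetase genes by 1.16 ± 0.052 (Aars), 0.72 ± 0.046 (Nars) and 0.30 ± 0.044 (Sars). Also higher were Nupr1 (1.29), Vldlr (0.76), Pck2 (0.61) and Sesn2 (0.25). The exception was Ddit4, an mTOR inhibitor that hypoxia and glucocorticoids also induce, at 228, 237 and 211 CPM against 192, 186 and 188 CPM (-0.26 ± 0.049, adjusted p = 4.24e-05). Summed over the list, the level was 3050, 3060 and 2960 CPM in WT and 5720, 5730 and 5740 CPM in labelled-deficient libraries. Outside the list, the neutral amino acid transporter gene Slc1a4 stood at 6.07, 5.61 and 5.44 CPM against 27, 28.7 and 29.2 CPM (2.31 ± 0.09, adjusted p = 9.33e-25).

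Cholesterol synthesis genes fell without exception. The pathway turns acetyl-CoA into mevalonate, then into isoprenoids and squalene, and closes squalene into sterols, and its enzymes are induced together by the transcription factor SREBP-2 when membrane sterol is low. All 19 members tested were called lower, where 17.2% of all tested genes were, with a median log2 fold change of -1.26 and a range from -2.63 to -0.40. The sterol response element TCACNCCAC was found on either strand in 1 of 14 members with a promoter window (7.14%, Hmgcs1) and in 388 of 27025 genes (1.44%), so the letters searched were rare among the members too. A CCAAT box, bound by the factor NF-Y, was found in 14 of 14 (100%) and in 11096 of all genes (41.1%). It was also frequent in the cell cycle (86.4%), fatty acid (72.7%) and ATF4 (70%) lists, the last of which rose, so it is not particular to this pathway. The stretches below, upstream of annotated exons, show the sterol response element of Hmgcs1 and then CCAAT, or ATTGG where it lies on the opposite strand, in Mvd, Lss and Sc5d:
Hmgcs1 (chr13:119690189-119690247, plus strand): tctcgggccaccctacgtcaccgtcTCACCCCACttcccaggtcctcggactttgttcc
Mvd (chr8:122443423-122443474, minus strand): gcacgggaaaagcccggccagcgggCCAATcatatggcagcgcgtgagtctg
Lss (chr10:76531518-76531572, plus strand): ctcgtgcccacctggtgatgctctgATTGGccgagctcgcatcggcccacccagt
Sc5d (chr9:42264301-42264349, minus strand): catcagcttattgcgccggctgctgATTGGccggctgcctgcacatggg

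In the mevalonate arm, Hmgcs1, the synthase of HMG-CoA, stood at 171, 180 and 180 CPM in WT against 58.6, 58.6 and 57.1 CPM in labelled-deficient libraries (-1.61 ± 0.049, adjusted p = 1.01e-28). Fdps, which makes farnesyl diphosphate, stood at 21.6, 21.7 and 21.8 CPM against 3.01, 3.74 and 3.84 CPM (-2.63 ± 0.124, adjusted p = 7.39e-22). No WT library overlapped a labelled-deficient one in either gene. Further enzymes of this arm fell too, with Mvk (-1.17), Pmvk (-1.49), Mvd (-1.20) and Idi1 (-1.88). In the sterol arm, Fdft1, the squalene synthase, stood at 86.8, 82.5 and 78.8 CPM against 21.1, 21.7 and 22 CPM (-1.94 ± 0.061, adjusted p = 4.28e-28). Cyp51, which removes a methyl group from lanosterol, stood at 124, 128 and 134 CPM against 42.6, 42.4 and 44.4 CPM (-1.58 ± 0.054, adjusted p = 8.98e-27). Further falls in this arm were those of Sqle (-1.20), Lss (-1.50), Tm7sf2 (-1.17), Msmo1 (-1.29), Nsdhl (-1.49), Hsd17b7 (-1.26), Ebp (-0.40), Sc5d (-0.98) and Dhcr7 (-1.19). The summed level of the pathway was 1850, 1870 and 1820 CPM in WT and 746, 740 and 760 CPM in labelled-deficient libraries.

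Genes that sense, take up and store sterol mostly fell in parallel, with 11 of 16 members lower and 2 higher and a median log2 fold change of -0.24. Srebf2, which encodes SREBP-2, fell by 0.98, Insig1, which holds the SREBPs in the endoplasmic reticulum, by 1.41, and the sterol carrier gene Stard4 by 1.14 on the log2 scale. The cholesterol exporter genes Abca1 and Abcg1, targets of the liver X receptors, were also lower (-0.72 ± 0.076 and -0.22 ± 0.048). Soat2, which esterifies cholesterol for storage, went the opposite way, from 7.34, 6.49 and 6.98 CPM to 38.3, 39.5 and 38.5 CPM (2.48 ± 0.082, adjusted p = 3.58e-27), while its relative Soat1 was lower (-0.28 ± 0.045). Nr1h3, which encodes LXR-alpha, was the other gene called higher (0.44 ± 0.139, adjusted p = 0.012), at levels of 3.15 to 4.96 CPM over the 6 libraries, and this call was lost without WT library 2, WT library 3 or labelled-deficient library 2. The call of Abcg1 was lost with library sizes alone.

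Fatty acid synthesis followed, with 12 of 14 members lower, none higher and a median of -0.82. Fads2, the delta-6 desaturase on the route to arachidonic acid, stood at 88.5, 101 and 89.5 CPM in WT against 20, 18.7 and 17.5 CPM in labelled-deficient libraries (-2.30 ± 0.068, adjusted p = 3.98e-29). Scd1, which desaturates stearate, stood at 172, 190 and 164 CPM against 77.3, 71.7 and 72.2 CPM (-1.25 ± 0.055, adjusted p = 9.26e-23). Acss2, which activates acetate, stood at 46.7, 47.9 and 45.1 CPM against 17.7, 17.2 and 18.2 CPM (-1.40 ± 0.067, adjusted p = 1.05e-21). The groups of these 3 genes did not overlap. Fasn, the fatty acid synthase, fell by 1.29, Acly by 0.91, Srebf1 by 0.76 and Fads1 by 0.88 on the log2 scale. The 2 members that did not pass, Me1 and Thrsp, stood below 2 CPM in every library.

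Cell cycle genes were lower in the labelled-deficient libraries. They encode the cyclins, kinases, motors and replication helicases that dividing cells make in quantity. Of 27 tested members 26 were called lower and 1 higher, with a median of -1.32. Top2a, the topoisomerase that untangles replicated DNA, stood at 313, 325 and 314 CPM in WT against 109, 109 and 113 CPM in labelled-deficient libraries (-1.53 ± 0.052, adjusted p = 6.08e-27). Ccnb2, a mitotic cyclin, stood at 68.2, 73.3 and 75.4 CPM against 20.4, 19.2 and 19.3 CPM (-1.88 ± 0.064, adjusted p = 5.93e-27). Ccna2, the cyclin of S phase and G2, stood at 75.5, 81.6 and 81.7 CPM against 27.8, 27.6 and 28.4 CPM (-1.51 ± 0.057, adjusted p = 2.48e-25). Every WT library stood far above every labelled-deficient one for these genes, whose replicates lay close together. Mki67, the proliferation antigen Ki-67, fell by 1.45, the replication helicase genes Mcm2 to Mcm7 by 0.71 to 1.36, and the replication clamp gene Pcna by 0.42 on the log2 scale. Tyms, the thymidylate synthase, was the member called higher, at 14.4, 14.3 and 11.9 CPM against 17.5, 16.8 and 17.5 CPM (0.36 ± 0.091, adjusted p = 0.00158).

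Promoters of genes expressed in G2 and mitosis often carry the cell cycle homology region TTTGAA. It was found, on either strand, in 10 of 22 members with a window (45.5%) and in 20.2% of all genes with a window. The E2F motif TTTCGCGC was found in 4 of 22 (18.2%) and in 0.374%, and TTTGGCGC in 3 of 22 (13.6%) and 0.585%. The following stretches, upstream of annotated exons, show the homology region in capitals, as TTCAAA where it lies on the opposite strand:
Top2a (chr11:99024190-99024237, minus strand): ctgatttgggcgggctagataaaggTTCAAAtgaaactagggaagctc
Kif11 (chr19:37376338-37376381, plus strand): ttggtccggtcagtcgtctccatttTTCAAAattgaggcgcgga
Ccnb2 (chr9:70421691-70421746, minus strand): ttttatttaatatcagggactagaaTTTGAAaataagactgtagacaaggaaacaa
Of the list of stem and progenitor genes, 7 of 14 were lower and 3 higher. The falls included Myb, which keeps progenitors dividing (-0.89 ± 0.06), and the granulocyte factors Gfi1 (-0.92 ± 0.067) and Cebpe (-0.94 ± 0.055). Cebpa, which starts the granulocyte programme, was lower by less (-0.29 ± 0.049), and Sox4, Meis1 and Hoxa9 were higher (0.80, 0.53 and 0.28). The call of Hoxa9 was lost when any library except WT library 1 was left out.

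**Figure D2:**
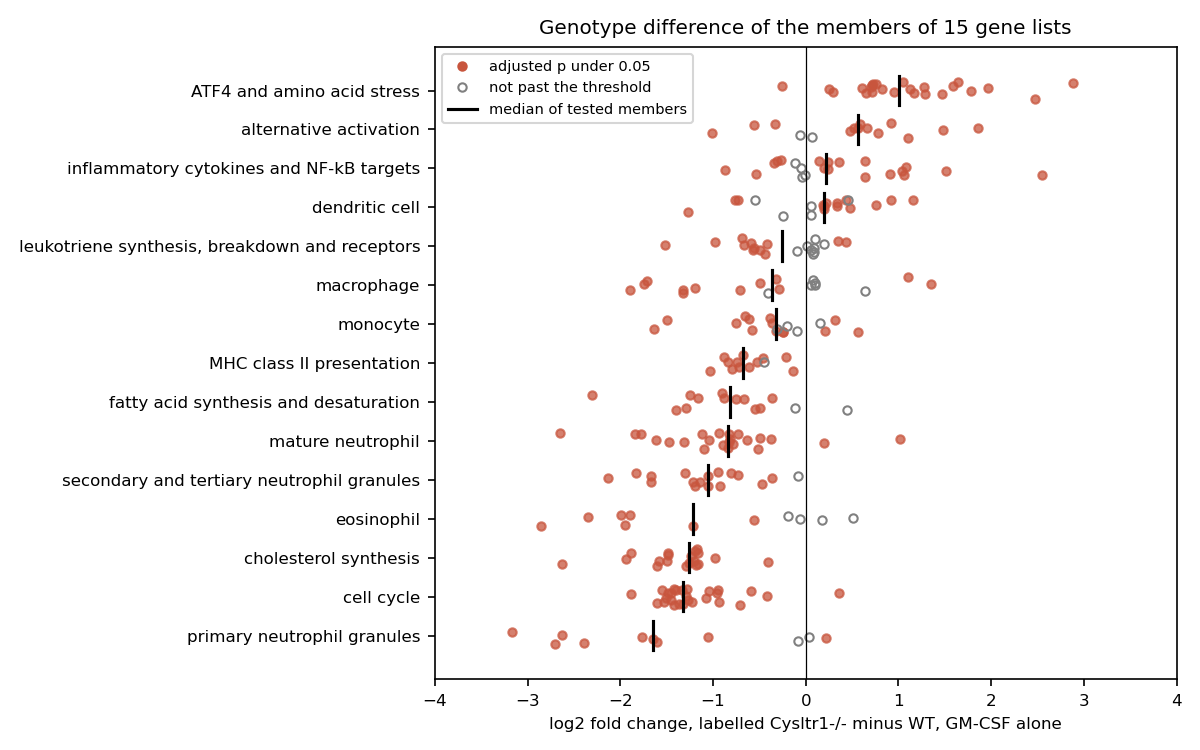
Log2 fold change (labelled Cysltr1-/- minus WT, GM-CSF alone) of each tested member of 15 gene lists. Filled points passed an adjusted p of 0.05, open points did not, points are spread vertically for sight only, and bars are list medians. The ATF4 list lies to the right (median 1), and cholesterol synthesis (-1.26), cell cycle (-1.32) and primary granules (-1.64) lie to the left.

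Granule genes, which neutrophils make in a fixed order as they mature, were lower at each stage. Primary granule genes mark promyelocytes: 8 of 11 were called lower and 1 higher, with a median of -1.64. Elane, the neutrophil elastase gene, stood at 407, 398 and 427 CPM in WT libraries against 44.6, 46 and 46.7 CPM in the labelled-deficient ones (-3.17 ± 0.055, adjusted p = 1.62e-37). Prtn3, proteinase 3, stood at 305, 288 and 296 CPM against 45.1, 46.7 and 44.9 CPM (-2.70 ± 0.068, adjusted p = 1.67e-31). Mpo, myeloperoxidase, stood at 634, 659 and 635 CPM against 190, 187 and 192 CPM (-1.76 ± 0.052, adjusted p = 3.98e-29). Replicates lay close together and the groups far apart in all 3 genes. Prss57 (-2.39 ± 0.124), Nkg7 (-2.62 ± 0.136) and Ctsg (-1.64 ± 0.056) fell as well, as did Ms4a3 (-1.60 ± 0.07) and Serpinb1a (-1.05 ± 0.054). Srgn, the granule proteoglycan that many leukocytes make, was higher (0.21 ± 0.05, adjusted p = 0.000649), while Ctsc and Cst7 did not pass (-0.09 and 0.03). Elane, Prtn3, Mpo and Ctsc, 4 of 9 members with a promoter window (44.4%), held the ETS motif GAGGAAGT on either strand, which PU.1 and its relatives can bind, compared with 997 of 27025 genes (3.69%). The stretches of Prtn3 and, as ACTTCCTC on the opposite strand, Ctsc lie upstream of annotated exons, although only the former gene passed the test:
Prtn3 (chr10:79879547-79879604, plus strand): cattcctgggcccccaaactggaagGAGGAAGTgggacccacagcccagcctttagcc
Ctsc (chr7:88277909-88277966, plus strand): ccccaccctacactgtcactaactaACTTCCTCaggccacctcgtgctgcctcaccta

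Secondary and tertiary granule genes, which myelocytes and later stages make, were lower in 16 of 17 members and higher in none (median -1.06). Ngp, neutrophilic granule protein, stood at 2880, 2840 and 2870 CPM in WT against 796, 808 and 811 CPM in labelled-deficient libraries (-1.83 ± 0.047, adjusted p = 2.92e-31). Camp, the cathelicidin gene, stood at 160, 151 and 189 CPM against 37.1, 38.5 and 39.5 CPM (-2.13 ± 0.064, adjusted p = 1.01e-28). Pglyrp1, a peptidoglycan-binding protein gene, stood at 354, 330 and 353 CPM against 107, 108 and 112 CPM (-1.67 ± 0.058, adjusted p = 1.72e-26). Ltf, lactoferrin, fell by 0.94, Lcn2, which binds bacterial siderophores, by 0.93, Mmp9 by 1.22 and Mmp8 by 0.73 on the log2 scale. The motif TTGCNNAA, which C/EBP factors bind, was found on either strand in 6 of 14 members with a window (42.9%) and in 3298 of 27025 genes (12.2%). It is shown in capitals for Ltf, where it lies on the opposite strand, and for Mmp8, both upstream of annotated exons:
Ltf (chr9:111019192-111019249, plus strand): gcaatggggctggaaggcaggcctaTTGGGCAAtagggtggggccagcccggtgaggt
Mmp8 (chr9:7558385-7558428, plus strand): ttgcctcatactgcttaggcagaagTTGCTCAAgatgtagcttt

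Genes of mature neutrophils were lower in 21 of 23 members and higher in 2 (median -0.84). Ly6g, the surface antigen that defines mouse neutrophils, stood at 236, 223 and 240 CPM in WT against 66.4, 70.1 and 67.8 CPM in labelled-deficient libraries (-1.77 ± 0.049, adjusted p = 5.99e-30). Retnlg, a resistin-like secreted protein gene, stood at 130, 116 and 132 CPM against 19.5, 20 and 21.2 CPM (-2.65 ± 0.064, adjusted p = 3.1e-32). Asprv1, a protease gene, stood at 68, 64.3 and 61.2 CPM against 20.4, 22 and 20.9 CPM (-1.61 ± 0.063, adjusted p = 1.57e-24). In each the lowest WT library stood well above the highest labelled-deficient one. The calprotectin genes S100a8 and S100a9 fell by 1.31 and 0.94, and the chemokine and growth factor receptor genes Cxcr2 and Csf3r by 0.37 and 0.49 on the log2 scale. G0s2, an inhibitor of triglyceride lipase (1.02 ± 0.069), and Trem1, an amplifying receptor (0.20 ± 0.058), were higher, the latter not when labelled-deficient library 3 was left out. Stfa2, Stfa2l1, Stfa3 and BC100530 were lower too, but they are near-identical copies whose separate counts are uncertain. Summed CPM of the list was 10700, 9980 and 11100 in WT and 5270, 5370 and 5560 in labelled-deficient libraries.

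Monocyte genes were lower in 11 of 18 members and higher in 3, with a median of -0.32. Ly6c2, the Ly6C antigen of inflammatory monocytes, stood at 42.9, 39.6 and 43.6 CPM in WT against 13.3, 13.3 and 14.2 CPM in labelled-deficient libraries (-1.64 ± 0.085, adjusted p = 2.04e-20). F13a1, a coagulation factor subunit gene, stood at 251, 266 and 243 CPM against 92.6, 84.9 and 92.1 CPM (-1.50 ± 0.062, adjusted p = 9.29e-24). Lyz2, lysozyme, stood at 4800, 4900 and 5360 CPM against 2960, 2870 and 3120 CPM (-0.75 ± 0.054, adjusted p = 1.05e-15). The groups of the 3 genes did not overlap. Ccr2, which draws monocytes to CCL2, and Csf1r, the M-CSF receptor gene, were lower by less (-0.61 ± 0.05 and -0.38 ± 0.048), and Klf4 and Vcan were higher (0.56 ± 0.061 and 0.32 ± 0.063).

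The macrophage list was split, with 10 of 18 members lower and 2 higher (median -0.36). The 3 chains of complement C1q, which tissue macrophages secrete, fell together. C1qb stood at 15.9, 15.5 and 16.3 CPM in WT against 4.08, 4.23 and 4.58 CPM in labelled-deficient libraries (-1.90 ± 0.11, adjusted p = 7.81e-19), with C1qa at -1.72 ± 0.108 and C1qc at -1.74 ± 0.106. The iron exporter gene Slc40a1 stood at 59.6, 61.4 and 59.1 CPM against 27.5, 25.7 and 25.1 CPM (-1.20 ± 0.06, adjusted p = 4.7e-21). Adgre1, the F4/80 antigen, stood at 867, 935 and 840 CPM against 538, 533 and 548 CPM (-0.71 ± 0.048, adjusted p = 1.39e-16). In contrast Mrc1, the mannose receptor CD206, stood at 106, 122 and 114 CPM against 248, 241 and 248 CPM (1.11 ± 0.063, adjusted p = 6.08e-19), the groups again without overlap. Cd5l, at most 2.84 CPM, was the other gene called higher (1.35 ± 0.25, adjusted p = 2.48e-05). Of the complement list 9 of 14 members were lower and none higher, and beside C1q these included C3 (-0.38 ± 0.053) and the anaphylatoxin receptor genes C3ar1 (-0.75 ± 0.053) and C5ar1 (-0.66 ± 0.052).

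Genes of lipid-associated macrophages moved both ways, with 7 of 17 higher and 5 lower. Cd36, a scavenger receptor for oxidised LDL and fatty acids, stood at 87.4, 95.1 and 87.2 CPM in WT against 218, 212 and 219 CPM in labelled-deficient libraries (1.27 ± 0.055, adjusted p = 4.41e-23). Trem2 and the lipoprotein lipase gene Lpl rose by 0.43 ± 0.052 and 0.41 ± 0.048, while Apoe and Fabp5 were lower (-0.39 ± 0.075 and -0.41 ± 0.056). The count of 7 became 11 with library sizes alone.

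Antigen presentation on MHC class II was lower, in 12 of 13 members, with none higher and a median of -0.68. H2-Aa, one chain of the I-A molecule, stood at 1410, 1330 and 1530 CPM in WT against 688, 687 and 721 CPM in labelled-deficient libraries (-1.03 ± 0.051, adjusted p = 5.29e-21). H2-Eb1 stood at 1710, 1620 and 1790 CPM against 916, 912 and 961 CPM (-0.88 ± 0.047, adjusted p = 5.26e-20). H2-Ab1 fell by 0.72, the invariant chain gene Cd74 by 0.68 and the class II transactivator gene Ciita by 0.74 on the log2 scale. None of these groups overlapped. The exception, H2-Eb2, stood below 2 CPM in all libraries.

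Dendritic cell genes did not follow the class II genes: 11 of 19 were higher and 3 lower (median 0.20). Fscn1, the actin-bundling protein of mature dendritic cells, stood at 48.7, 47.7 and 43.7 CPM in WT against 104, 104 and 104 CPM in labelled-deficient libraries (1.16 ± 0.058, adjusted p = 7.49e-21). Ccr7, the receptor that guides such cells to lymph nodes, stood at 94.5, 90.3 and 89.9 CPM against 155, 151 and 158 CPM (0.76 ± 0.049, adjusted p = 3.82e-17). Batf3 rose by 0.92 ± 0.075, Cd83 by 0.44 ± 0.057 and Irf4 by 0.34 ± 0.053. Cd209a, the DC-SIGN lectin of monocyte-derived dendritic cells, went down, from 33.4, 37 and 35.3 CPM to 13.4, 15.9 and 14.5 CPM (-1.27 ± 0.079, adjusted p = 9.71e-18). Dpp4 and Cst3 were lower too (-0.72 ± 0.085 and -0.76 ± 0.051), and Flt3, Xcr1 and Clec9a did not pass. Itgax (CD11c) was higher at 0.22 ± 0.066, a call lost in DESeq2 and without labelled-deficient library 1, with a highest adjusted p of 0.142. The summed level of the list was 4390, 4280 and 4270 CPM in WT and 3610, 3580 and 3680 CPM in labelled-deficient libraries, so the sum was lower although more members were higher.

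Genes of alternative macrophage activation, the programme that IL-4 induces, were higher in 10 of 15 members and lower in 3 (median 0.56). Chil3, the chitinase-like protein Ym1, stood at 2540, 2560 and 2730 CPM in WT against 7320, 7180 and 7360 CPM in labelled-deficient libraries (1.48 ± 0.075, adjusted p = 6.82e-21). Arg1, which turns arginine into ornithine and urea, stood at 2460, 2490 and 2480 CPM against 3730, 3620 and 3830 CPM (0.59 ± 0.068, adjusted p = 1.08e-09). Both groups were tight and did not overlap. Mgl2 rose by 0.66 ± 0.066, the transglutaminase gene Tgm2 by 0.92 ± 0.053, the PD-1 ligand gene Pdcd1lg2 by 0.53 ± 0.055 and the chemokine gene Ccl17 by 0.78 ± 0.061. Retnla, the resistin-like protein Fizz1, ran against the list, from 994, 891 and 1100 CPM to 482, 499 and 503 CPM (-1.01 ± 0.059, adjusted p = 1.02e-18), with Ccl24 and Ear2 also lower (-0.34 and -0.56). The summed level of the list was 9840, 9880 and 10100 CPM in WT and 17800, 17500 and 18000 CPM in labelled-deficient libraries.

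**Figure D3:**
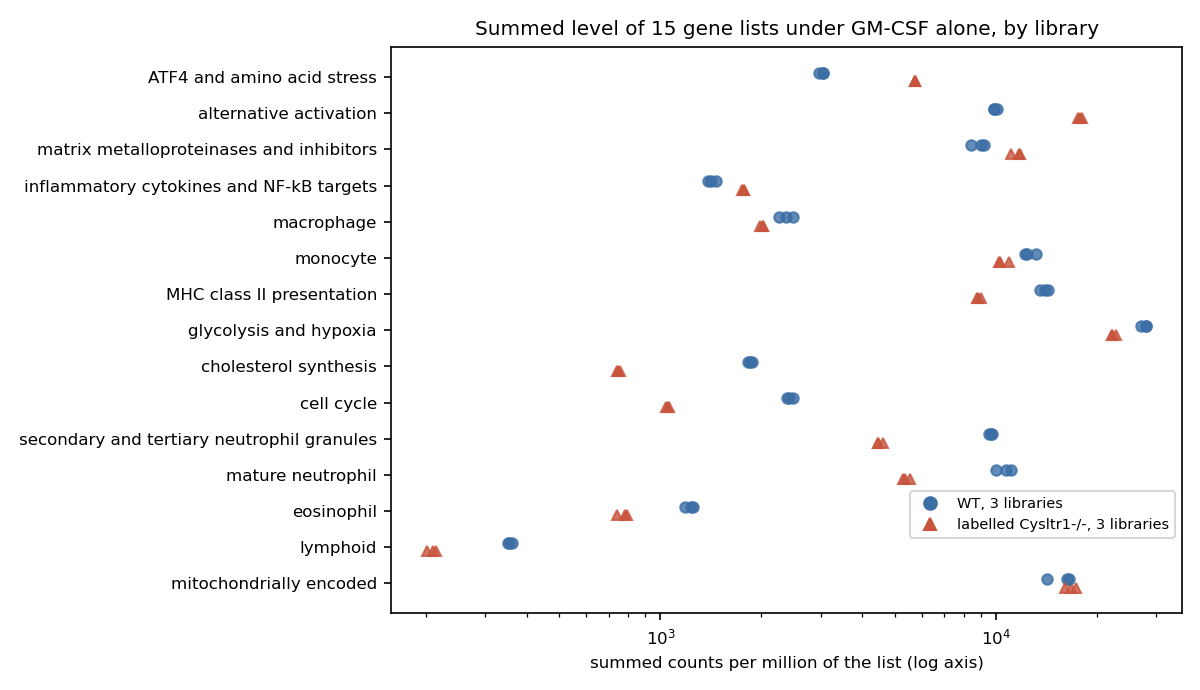
Summed CPM (log axis) of 15 gene lists in each GM-CSF library. Circles are the 3 WT libraries and triangles the 3 libraries labelled Cysltr1-/-. Of the lists drawn, only the mitochondrially encoded genes overlap between the genotypes (14200 to 16500 and 16000 to 17300 CPM). The sums of the prostanoid, lipid-associated macrophage and erythroid and megakaryocyte lists, not drawn, overlap as well. The alternative activation list stands at 9840 to 10100 CPM in WT and 17500 to 18000 CPM in the labelled-deficient libraries.

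Mediators by which myeloid cells restrain T cells moved in opposite directions, 6 of 18 higher and 9 lower. Nos2, the inducible nitric oxide synthase, which shares the substrate arginine with Arg1, stood at 170, 187 and 149 CPM in WT against 125, 124 and 119 CPM in labelled-deficient libraries (-0.45 ± 0.057, adjusted p = 1.37e-08), while the arginine transporter gene Slc7a2 rose by 0.68 ± 0.058. Cybb, the catalytic subunit of the phagocyte NADPH oxidase, stood at 619, 683 and 580 CPM against 237, 239 and 238 CPM (-1.40 ± 0.053, adjusted p = 4.25e-25). Vsir, which encodes the inhibitory ligand VISTA, stood at 823, 831 and 797 CPM against 510, 505 and 516 CPM (-0.68 ± 0.044, adjusted p = 4.22e-17), and Lgals9, galectin-9, was lower as well (-0.62 ± 0.053). Cd274, the PD-L1 gene, did not pass, with WT libraries at 262 to 288 CPM and labelled-deficient ones at 291 to 305 CPM (0.12 ± 0.047, adjusted p = 0.0648), although 7 of 14 alternatives put it past the threshold.

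Inflammatory cytokine and NF-kB target genes were higher in 13 of 22 members and lower in 5 (median 0.22). Beside Il6, Cxcl3, which attracts neutrophils through CXCR2, stood at 108, 100 and 110 CPM in WT against 307, 298 and 305 CPM in labelled-deficient libraries (1.51 ± 0.055, adjusted p = 7.21e-26). Ccl4 stood at 21.1, 20.1 and 22 CPM against 44.6, 43.5 and 41.6 CPM (1.03 ± 0.065, adjusted p = 1.13e-17), Ccl2 rose by 1.06 ± 0.083 and Cxcl2 by 0.91 ± 0.062. Against these, Tnf stood at 66.5, 59 and 52.5 CPM against 32.2, 30.4 and 35.1 CPM (-0.87 ± 0.072, adjusted p = 9.44e-14) and Il1b was lower by 0.54 on the log2 scale, with no overlap of the groups. The NF-kB feedback gene Tnfaip3 was lower (-0.34 ± 0.052), and Ccl3, a chemokine of the list, and Nfkbia did not pass (-0.12 ± 0.057, adjusted p = 0.145, and -0.04 ± 0.045, adjusted p = 0.542).

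Most tested enzymes that make leukotrienes were lower. Of the list of synthesis, breakdown and receptor genes 10 of 20 were lower and 2 higher (median -0.25), and only Cysltr1 and Pla2g4a, the phospholipase that frees arachidonic acid, were called higher (0.34 and 0.43). Alox5 stood at 634, 658 and 589 CPM in WT against 391, 387 and 392 CPM in labelled-deficient libraries (-0.69 ± 0.05, adjusted p = 1.67e-15). Alox5ap stood at 630, 579 and 631 CPM against 379, 388 and 395 CPM (-0.66 ± 0.049, adjusted p = 2.37e-15). Lta4h, the hydrolase that turns leukotriene A4 into the neutrophil attractant leukotriene B4, stood at 313, 320 and 314 CPM against 110, 111 and 109 CPM (-1.52 ± 0.048, adjusted p = 3.79e-28). All WT libraries were above all labelled-deficient ones. Ltc4s, which makes leukotriene C4, stood at 25.4, 20.9 and 25.1 CPM against 16.4, 16.1 and 16.3 CPM (-0.56 ± 0.087, adjusted p = 1.1e-06). Mgst2, a second enzyme with that activity, stood at 152, 136 and 150 CPM against 71, 75.5 and 76.1 CPM (-0.98 ± 0.051, adjusted p = 2.71e-20). Ggt5 and Dpep2, which convert leukotriene C4 to D4 and E4, were lower by 0.44 and 0.42 on the log2 scale. The receptor genes Ltb4r1, Ltb4r2 and Cysltr2 and the exporter gene Abcc1 did not pass (0.01, 0.10, 0.09 and 0.08). As described above, neutrophil genes were lower in the same libraries, and neutrophils are known to express Alox5, Alox5ap and Lta4h. The part of cell makeup in these values was not tested.

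Among prostanoid genes 5 of 18 were higher and 2 lower (median 0.30), where 10.1% and 17.2% of all tested genes were. At 5 CPM or more, 52.5 to 68.1% of genes by level were called in either direction. Receptors made up 3 of the 5. Ptger2, a receptor for prostaglandin E2 that raises cyclic AMP, stood at 15.9, 15.9 and 16.5 CPM in WT against 35.2, 34.8 and 37.5 CPM in labelled-deficient libraries (1.15 ± 0.068, adjusted p = 2.06e-18). Ptger3, which lowers cyclic AMP, stood at 9.23, 8.69 and 7.2 CPM against 16.4, 16.3 and 15.9 CPM (0.97 ± 0.098, adjusted p = 3.51e-11), and the prostacyclin receptor gene Ptgir rose by 0.35 ± 0.055. Ptgs1, cyclo-oxygenase 1, was lower (-0.31 ± 0.044, adjusted p = 1.54e-07), and Ptgs2, cyclo-oxygenase 2, did not pass at 2.58 to 3.78 CPM over the 6 libraries.

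Of GM-CSF receptor and STAT5 target genes 6 of 16 were higher and 3 lower, where 10.1% and 17.2% of all tested genes were. Calls in either direction took 52.5 to 68.1% of genes at 5 CPM or more, by level. Ccl22, a chemokine for regulatory T cells, stood at 176, 173 and 172 CPM in WT against 455, 460 and 459 CPM in labelled-deficient libraries (1.40 ± 0.051, adjusted p = 7.21e-26), Socs2 rose by 0.50 ± 0.048, and Il2ra fell from 260, 274 and 240 CPM to 146, 148 and 144 CPM (-0.82 ± 0.05, adjusted p = 6.24e-18). The receptor chain Csf2ra did not pass (0.12 ± 0.048, adjusted p = 0.0682) and Csf2rb did (0.16 ± 0.049, adjusted p = 0.009). Csf2ra passed under 8 of 14 alternatives, and Csf2rb did not pass without WT library 3 or labelled-deficient library 1. Of the IL-6 and STAT3 targets 10 of 18 were lower and 5 higher, and the Il6 transcript was higher. Targets thus moved both ways, and the largest change of the list was the rise of Timp1 (2.45), described above. Ccl8 rose from a mean of 2.96 to one of 8.56 CPM, and Il21r from 15.1 to 22.5 CPM. Lrg1 stood at 170, 156 and 156 CPM against 77.5, 79 and 75.3 CPM (-1.05 ± 0.052, adjusted p = 2.82e-21) and Lif at 33.9, 33.6 and 31.9 CPM against 13.2, 14.5 and 13.1 CPM (-1.28 ± 0.073, adjusted p = 4.28e-19), while the signalling chain Il6st was higher (0.42 ± 0.055) and Socs3, a feedback inhibitor, lower by 0.17. With library sizes alone the 10 lower STAT3 targets became 6 and Socs3 did not pass.

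Matrix metalloproteinases and their inhibitors moved both ways, 7 of 12 higher and 4 lower. Mmp13, a collagenase, stood at 83.1, 95.1 and 88 CPM in WT against 292, 264 and 286 CPM in labelled-deficient libraries (1.67 ± 0.052, adjusted p = 3.79e-28), and the macrophage elastase gene Mmp12 rose by 0.68 ± 0.057, while the neutrophil enzymes Mmp8, Mmp9 and Mmp25 were lower. Of the glycolysis and hypoxia list, 18 of 23 members were lower, all by less than 2-fold (median -0.37), with Bnip3 (-0.73 ± 0.046), the lactate exporter gene Slc16a3 (-0.67 ± 0.05) and Egln3 (-0.53 ± 0.044) having the smallest p-values among the falls, and Ero1l higher (0.28 ± 0.044). Immediate early genes, which are induced within minutes of a stimulus, were lower in 13 of 19 members and higher in none (median -0.46). Zfp36, which destabilises cytokine mRNA, stood at 486, 447 and 391 CPM against 205, 210 and 194 CPM (-1.12 ± 0.056, adjusted p = 6.41e-21), Klf2 fell by 0.91 and Fos by 1.11 on the log2 scale.

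The members of other stress lists were called in both directions, where 10.1% of all tested genes were higher and 17.2% lower. Among genes at 5 CPM or more, 52.5 to 68.1% by level were called in either direction. Inducible heat shock genes were higher in 5 of 12 members and lower in 5: the mitochondrial chaperone gene Hspd1 rose by 0.63 ± 0.048, and Hspa8 and the near-identical pair Hspa1a and Hspa1b, whose counts are uncertain apart, were lower (-0.60, -0.95 and -0.99). Of 16 endoplasmic reticulum chaperone genes 3 were higher and 5 lower, with Herpud1 at 0.48 ± 0.056, Calr at -0.31 ± 0.044 and Sdf2l1 at -0.42 ± 0.051. The 5 lower became 2 with library sizes alone and 8 without WT library 2. NRF2 antioxidant genes were higher in 4 of 12 and lower in 3, among them Slc7a11 (given above), Sqstm1 (0.45 ± 0.043) and Gsr (-0.78 ± 0.05). Of 27 type I interferon-stimulated genes 7 were higher and 4 lower, to be set beside the same 10.1% and 17.2%. The smallest p-values were those of Stat2 (-0.62 ± 0.058), Mx1 (-0.59 ± 0.095) and Irf7 (0.54 ± 0.063), and the largest rises those of Ifi44 (1.36 ± 0.22) and Rtp4 (0.96 ± 0.216), both below 3 CPM on average in each group. The 7 became 11 with library sizes alone.

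Genes of other lineages that marrow cultures can hold were measured for comparison. Eosinophil genes were lower in 7 of 11 members and higher in none (median -1.21): Epx, eosinophil peroxidase, stood at 242, 274 and 256 CPM in WT against 67.5, 60.1 and 66.7 CPM in labelled-deficient libraries (-1.99 ± 0.06, adjusted p = 1.01e-28). Prg2, the major basic protein gene, stood at 308, 333 and 374 CPM against 89.3, 82.2 and 92.2 CPM (-1.95 ± 0.062, adjusted p = 5.51e-28). Prg3 fell by 2.35 and Ear6 by 1.90 on the log2 scale, the latter in a family of near-identical copies. Of mast cell and basophil genes 5 of 15 were lower and 3 higher, where 17.2% and 10.1% of all tested genes were. Of genes at 5 CPM or more, 52.5 to 68.1% by level were called in either direction, so these counts do not set the list apart. The basophil proteases led the falls, with Prss34 at 103, 91.7 and 102 CPM against 27.5, 28.5 and 31.6 CPM (-1.77 ± 0.066, adjusted p = 2.67e-25), Mcpt8 at -1.84 ± 0.077 and the histidine decarboxylase gene Hdc at -0.86 ± 0.061. Lymphoid genes were lower in 11 of 17, with 1 higher, at a summed level of 361, 353 and 352 CPM in WT and 202, 210 and 214 CPM in labelled-deficient libraries. Ighm (-0.94 ± 0.05), Cd79a (-0.80 ± 0.078) and Cd79b (-0.71 ± 0.071), all of B cells, had the smallest p-values. The largest fall in the list was that of Cd3d, a T-cell receptor component (-1.78), while Cd3e and Cd3g did not pass.

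In the erythroid and megakaryocyte list 2 of 13 were higher and 2 lower, where 10.1% and 17.2% of all tested genes were. Among them were the beta-globin gene Hbb-bs at 0.292, 0.441 and 0.585 CPM in WT against 2.13, 1.5 and 1.67 CPM in labelled-deficient libraries (1.95 ± 0.316, adjusted p = 2.26e-06), Tfrc (-0.44 ± 0.053) and Ppbp (-0.31 ± 0.052). Stromal and endothelial genes were lower in 2 of 12 and higher in 1, shares near the 17.2% and 10.1% of all tested genes. The 3 were Acta2 (-0.93 ± 0.112), Pdgfrb (-0.59 ± 0.085) and Pecam1 (0.26 ± 0.047). The summed level was 229 to 242 CPM in WT and 242 to 252 CPM in labelled-deficient libraries. Of the 13 mitochondrially encoded genes only mt-Nd6 was called higher (0.24 ± 0.068, adjusted p = 0.00543), mt-Nd5 and mt-Cytb did not pass (0.20 and 0.19), and the count ran from 0 to 8 over the alternatives; mt-Nd6 did not pass in DESeq2 or without WT library 2. The kallikreins of the Klk1b cluster, with 14 members listed and 7 tested, were lower in 5. The smallest p-values were those of Klk1b9 (-0.83 ± 0.065), Klk1b11 (-0.85 ± 0.067) and Klk1b27 (-1.17 ± 0.092). Klk1 had the largest fold change (-1.39 ± 0.459) at a mean below 1 CPM, and its call was lost without WT library 1, WT library 3, labelled-deficient library 1 or labelled-deficient library 2. Their sequences are near-identical, and the split of counts between them is uncertain.

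The genotype difference was then set against that of the other cultures, which used other libraries. Of the 7735 genes called under GM-CSF alone 4928 were also called with IL-6 added (63.7% of these, and 57.1% of the 8635 called there, which are 30.5% of the tested genes), 4790 of them in the same direction. With EMT6 medium 4690 were called (60.6%, and 31.8% of the 14749 called there, which are 52.1% of the tested genes), 3477 in the same direction. The EMT6 libraries held 9583728 to 18221674 gene counts, mostly fewer than the GM-CSF ones. Reads in no annotated feature made up 34.7 to 37.5% of the WT files with EMT6 medium and 50.1 to 50.4% of the labelled-deficient ones. Under GM-CSF alone these shares were 12.8 to 15.9% and 17 to 18.1%. The part of this gap in the comparisons with EMT6 medium was not tested. Whether the genotype difference itself differed was tested as an interaction. Between GM-CSF alone and GM-CSF with IL-6 it differed for 2091 genes (7.38%), with 1263 (4.46%) more positive and 828 (2.92%) more negative under GM-CSF alone. Against EMT6 medium it differed for 7245 genes (25.6%), 3499 (12.3%) and 3746 (13.2%). The positive share of these calls moved with the test method, the scaling and the filter. It ran from 48.9 to 79.1% for IL-6 (60.4% as reported) and from 30.8 to 77.3% for EMT6 medium (48.3%). Among differences of at least 2-fold it was 35.1% for IL-6 and 23.9% for EMT6 medium.

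The genotype difference of the ATF4 list was larger under GM-CSF alone than with IL-6. For 22 of its 24 members the genotype difference was more positive there than with IL-6, and for none more negative, where 4.46% and 2.92% of all tested genes were. Here too, the lists were chosen with earlier results of these data known. The median log2 fold change was 1 under GM-CSF alone, 0.17 with IL-6 and 0.06 with EMT6 medium. Trib3 stood at 33.9 ± 1.39 CPM (mean ± SD, n = 3) in WT and 250 ± 2.82 CPM in labelled-deficient libraries under GM-CSF, and at 212 ± 8.06 and 290 ± 1.38 CPM with IL-6. The log2 difference between the genotype effects was 2.44 ± 0.076, adjusted p = 5.13e-27. Chac1 had 8.52 ± 1.35 and 46.5 ± 1.98 CPM under GM-CSF and 32.9 ± 0.344 and 39 ± 1.89 CPM with IL-6 (2.23 ± 0.118, adjusted p = 1.54e-18). Other large differences against IL-6 were those of Slc6a9 (2.27 ± 0.186, adjusted p = 1.34e-12), Slc1a4 (2.26 ± 0.118, adjusted p = 1.14e-18) and Cth (1.95 ± 0.167, adjusted p = 4.38e-12), all amino acid transporters or enzymes. Soat2, the sterol-esterifying enzyme, led them at 2.47 ± 0.105, adjusted p = 7.74e-22, with 43.8 ± 3.02 and 44 ± 1.73 CPM in WT and labelled-deficient libraries with IL-6.

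The fall of cholesterol synthesis genes was also larger under GM-CSF alone than in either other culture, for 19 of 19 members against IL-6 and 19 of 19 against EMT6 medium, where 2.92% and 13.2% of all tested genes had a more negative difference. The medians were -1.26 under GM-CSF alone, -0.63 with IL-6 and 0.13 with EMT6 medium. Fdps stood at 4.74 ± 0.564 CPM in WT against 6.91 ± 0.871 CPM in labelled-deficient libraries with EMT6 medium, where its genotype log2 fold change was 0.53, and the difference from GM-CSF alone was -3.16 ± 0.195, adjusted p = 3.38e-17. Fatty acid synthesis genes differed the same way in 8 of 14 members against IL-6 and 12 of 14 against EMT6 medium. Cell cycle genes were lower in labelled-deficient libraries with IL-6 too, with 26 of 27 called lower and a median of -0.96, where 30.5% of all tested genes were called in either direction, but the difference was more negative under GM-CSF alone for 19 of 27, and for 23 of 27 against EMT6 medium. Both comparisons of cultures share the 6 GM-CSF libraries.

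**Figure D4:**
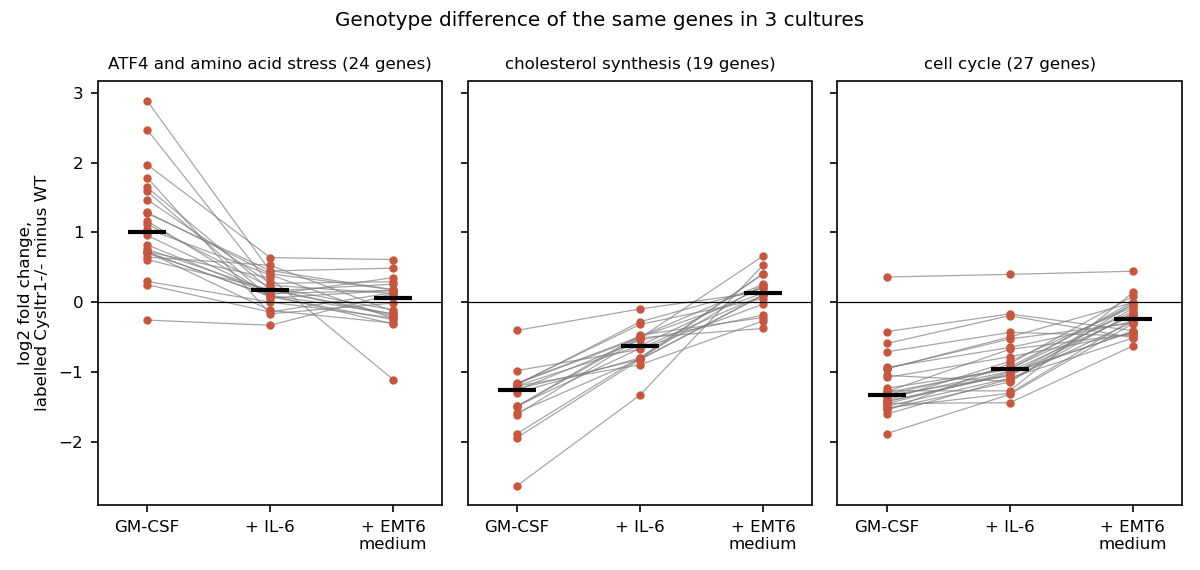
Log2 fold change (labelled Cysltr1-/- minus WT) of each member of 3 gene lists in cultures with GM-CSF alone, with IL-6 added and with EMT6 medium added. Points are genes, grey lines join the values of a gene, and thick bars are medians, which are 1, 0.17 and 0.06 for the ATF4 list, -1.26, -0.63 and 0.13 for cholesterol synthesis and -1.32, -0.96 and -0.25 for cell cycle.

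Secondary granule genes showed the reverse order against IL-6: their fall was smaller under GM-CSF alone, with a more positive difference for 11 of 17 members and a more negative one for 1 (4.46% and 2.92% of all tested genes), and medians of -1.06 and -1.61. The C1q chains, lower under GM-CSF alone, had genotype log2 fold changes of -0.07 (C1qa), -0.15 (C1qb) and -0.17 (C1qc) with IL-6, and the differences were -1.64 ± 0.153, adjusted p = 6.03e-11, -1.75 ± 0.163, adjusted p = 6.22e-11 and -1.57 ± 0.156, adjusted p = 3.57e-10. Cxcl3 (1.10 ± 0.075, adjusted p = 7.32e-15), Il6 (1.30 ± 0.12, adjusted p = 4.98e-11), Ptger2 (1.09 ± 0.093, adjusted p = 3.63e-12) and Ptger3 (1.09 ± 0.128, adjusted p = 2.4e-08) had more positive genotype differences under GM-CSF alone. More negative ones were those of Lta4h (-0.93 ± 0.067, adjusted p = 2.47e-14), Retnla (-0.76 ± 0.083, adjusted p = 4.41e-09) and Hspa1b (-1.38 ± 0.095, adjusted p = 8.84e-15). Against EMT6 medium the largest differences were those of Fndc3c1 (4.83 ± 0.261, adjusted p = 4.24e-19), Rbp4 (3.58 ± 0.309, adjusted p = 1.07e-12), Mmp13 (3.12 ± 0.072, adjusted p = 3.02e-32), Car6 (3.01 ± 0.338, adjusted p = 1.22e-09), Fdps and Lilra5, an activating leukocyte receptor (-2.99 ± 0.38, adjusted p = 2.48e-08). Mmp13 and Lilra5 turned direction, with genotype log2 fold changes of 1.67 and -1.68 under GM-CSF alone and -1.46 and 1.31 with EMT6 medium. Fndc3c1 kept its rise with IL-6 (log2 fold change 6.77) and H2-Q7 its fall in both other cultures (-3.83 and -3.76), and for these the difference against IL-6 did not pass (adjusted p = 0.148 and 0.965).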

How the data were processed

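Poly(A) RNA of all 18 libraries (6 groups of 3) was sequenced, and the values are whole-number read counts per gene, 1 deposited file per library. Per the submitters' processing notes the authors used HISAT2 2.1.0, HTSeq 0.13.5, DESeq2 1.34.0 and the mm10 build. The annotation, strand setting and filters are not given in the sources used here. The 26248 entries with a bare number as name, 97 spike-ins and 5 HTSeq summary lines were left out. All 55536 gene IDs matched GENCODE M21 (GRCm38). Counts were fitted with edgeR 4.0.16 in R 4.3.3 (TMM scaling, filterByExpr with a minimum count of 10, quasi-likelihood test, 1 mean per group, all 18 libraries sharing the spread estimate), with Benjamini-Hochberg adjustment over all 28334 tested genes and calls at an adjusted p under 0.05. CPM values are TMM-scaled, SEs were derived from the fold change and its F statistic, and the steps were tested on simulated data.

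Replicate numbers were not treated as pairs, since they are not stated to pair samples. Deviations of same-numbered libraries correlated at 0.09, 0.07 and 0.26, and those of libraries with different numbers at -0.21 to 0.14. Pairing is therefore not excluded, and a replicate block was fitted as an alternative. Named genes were the 12 largest rises and falls past the threshold with a mean of at least 5 CPM and no overlap of groups, the 3 members of each of 36 lists with the smallest p, the 6 largest differences per pair of cultures, fixed genes, and genes within 2 Mb of Cysltr1. Other members were chosen for their roles after their values were seen. The members and lists were chosen with earlier results of these data known. Alternatives were DESeq2 1.42.0, other scalings and filters, fewer groups in the fit, a replicate block, a 2-fold threshold and leaving out each library. Values of a few list members are not reported here.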

Additional observations from a re-analysis of the deposited data

Results flagged for a closer look

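The genotype difference itself differed between cultures, by interaction tests in edgeR with Benjamini-Hochberg adjustment, for 2091 genes between GM-CSF alone and GM-CSF with IL-6. The genes named among them were, with the log2 difference of the genotype effect (GM-CSF alone minus IL-6), Soat2 at 2.47, Trib3 at 2.44, Slc6a9 at 2.27, Slc1a4 at 2.26, Chac1 at 2.23, Cth at 1.95, Il6 at 1.3, Cxcl3 at 1.1, Ptger2 at 1.09 and Ptger3 at 1.09. Negative differences were those of C1qb at -1.75, C1qa at -1.64, C1qc at -1.57, Hspa1b at -1.38, Lta4h at -0.93 and Retnla at -0.76.

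Against EMT6 medium the genotype difference differed for 7245 genes, and the largest among named genes were Fndc3c1 at 4.83, Rbp4 at 3.58, Mmp13 at 3.12 and Car6 at 3.01, with Fdps at -3.16 and Lilra5 at -2.99. Groups of 3 libraries were not screened for outlying samples. Entries with a bare number in place of a gene ID, which no comparison uses, took 0.0631% of feature counts in the labelled-deficient libraries and 0.0473% in WT (exact permutation p = 0.1, two-sided, the smallest that 3 against 3 allows).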

How the results depend on the processing

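A gene had up to 14 alternatives for its genotype effect and up to 20 for the difference of that effect between cultures. Across these, values of named genes and list members kept their side of the threshold in 8647 cases. A call was gained in 155 and lost in 202. In 194 of the 8647 the sign turned without a call in either fit. A value turned direction with a call: Ctsb, at -0.01 in the reported fit, was 0.11 with library sizes alone (edgeR adjusted p = 0.0154). Genes called between the genotypes numbered 6576 to 8133 under alternatives other than the 2-fold threshold. Of the summary values, 661 stayed near the reported one and 73 moved. Counts were judged by a factor of 1.5 and ratios of read shares by the spread between libraries. The share called near Cysltr1 was judged by its binomial confidence interval. The cause of the other shifts was not tested. Replicate numbers are no known pairs, all 3 same-numbered correlations were positive, and labelled-deficient library 1 correlated best with WT library 2 (0.14) while the other 2 correlated best with their own number. With the replicate number as a block, 7768 genes were called for the genotype, 2151 for its difference against IL-6 and 7253 against EMT6 medium, with 2 mitochondrial genes higher.

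The summary values that moved were as follows. DESeq2 gave 1914 positive and 505 negative differences against IL-6, 1982 negative ones against EMT6 medium and 0 mitochondrial genes higher. Library sizes alone gave 4735 genes higher, 6 STAT3 targets lower, 11 lipid-associated macrophage genes, 11 interferon-stimulated genes, 6 erythroid genes and 6 mitochondrial genes higher, and 2 endoplasmic reticulum chaperones lower. With no filter there were 6041 positive and 1779 negative differences against EMT6 medium, 6 STAT3 targets and 3 chaperones lower and 8 mitochondrial genes higher. A minimum mean of 5 CPM in a group gave 1347 negative differences against IL-6, 1 erythroid and 2 mitochondrial genes higher. Fits of only the groups compared, or without the EMT6 libraries, each gave 1283 negative differences against IL-6 and 3 mitochondrial genes higher.

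A threshold of 2-fold, stricter by construction, left 1210 genes (590 higher, 620 lower), 185 differences against IL-6 (65 positive, 120 negative) and 1798 against EMT6 medium (429 and 1369), and a share of 7.88% near Cysltr1. Lower by that rule were 1 leukotriene, 2 STAT3, 0 progenitor, 10 secondary granule, 9 mature neutrophil, 2 monocyte, 6 macrophage, 1 MHC class II, 2 suppressive, 3 sterol-sensing, 5 fatty acid, 0 glycolysis, 0 chaperone, 3 immediate early, 3 complement, 2 Klk1b, 2 mast cell and 2 lymphoid genes. Higher were 1 prostanoid, 1 STAT5, 1 lipid-associated, 1 dendritic, 3 alternative activation, 5 inflammatory, 1 interferon-stimulated, 12 ATF4, 0 heat shock, 0 NRF2, 2 metalloproteinase, 1 erythroid, 0 stromal and 0 mitochondrial genes.

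Leaving out single libraries gave 2369 to 3549 negative differences against EMT6 medium, with 2491 without WT EMT6 library 1 and 2369, 2402 and 2494 without labelled-deficient GM-CSF library 1, 2 and 3. It gave 5 to 8 chaperones lower (8 without WT library 2), 2 to 4 erythroid genes higher (4 without WT library 3) and 0 to 1 mitochondrial genes (0 without WT library 2). Depth limits the 12954 genes below 1 CPM, of which 4.72% were called.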
